A study of Mus musculus with 52 samples.

Results

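Distal regions of the mouse genome that carried an H3K4me1 peak in every library of F/F MEFs and in no library of FC/FC MEFs were called lost. The peaks of 6 H3K4me1 libraries were merged where they overlapped or touched, and a merged region was distal when it lay more than 5 kb from every transcription start site (TSS) of the deposited transcript tables. By this rule 775 of 84067 distal H3K4me1 regions (0.922%) were lost in FC/FC. The reverse pattern, a peak in all 3 FC/FC and no F/F library, was met by 272 regions, called gained here. A peak in all 6 libraries was met by 39484 regions, called constant, and a peak in all 3 F/F libraries and exactly 1 FC/FC library by 1740 regions. The members were thus chosen by H3K4me1 peak calls, so all H3K4me1 values are given as a description, without a test.

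H3K4me1 is a mark of nucleosomes at enhancers, the distal elements that bind transcription factors and act on promoters, and it extends along the flanks of promoters as well. H3K4me2 covers active promoters and the stronger enhancers, and H3K4me3 is concentrated at active TSSs. MLL2, also called KMT2D, is one of the methyltransferases that place methyl groups on H3K4 and is known as an enhancer H3K4 monomethyltransferase in mammalian cells. MLL3 (KMT2C) is its close relative and was not targeted in these cells.

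The study compared FC/FC with F/F MEFs by ChIP-seq, in which DNA bound to a precipitated protein or histone mark is sequenced. FC/FC cells were immortalised mouse embryonic fibroblasts with loxP sites in both Mll2 alleles, exposed for 24 h to tamoxifen, which excises part of Mll2. The methods of the paper state that treated cells were then washed and grown for several further days before harvest, unless otherwise stated. F/F cells were the same loxP-carrying fibroblasts without tamoxifen. Each mark had 3 FC/FC and 3 F/F libraries, described by the submitters as independent replicates, and 18 of the 52 samples of the series were used. FC/FC cells alone received tamoxifen, so excision and drug exposure cannot be told apart in these libraries, and the tables hold 1 value per transcript and none for the excised exons, so the genotype was not checked from them.

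The number of deposited H3K4me1 peaks was 101157, 90629 and 89026 in FC/FC (libraries NGS-6281, NGS-6289 and NGS-6297) and 120661, 81444 and 101056 in F/F (NGS-6277, NGS-6285 and NGS-6293). The groups overlapped, and F/F held both the longest list and the shortest. Reads summed over all listed transcripts came to 31253262 to 38871331 in FC/FC and 26714377 to 30528079 in F/F H3K4me1 libraries. A read in overlapping transcripts can count more than once in these sums, so they are not library sizes. H3K4me2 lists held 56112 to 58585 peaks in FC/FC and 62100 to 70437 in F/F, and H3K4me3 lists 17129 to 18296 in FC/FC and 17545 to 18701 in F/F. Of 12 genes that define fibroblasts, 10 had an H3K4me3 RPKM above 1 in all 6 H3K4me3 libraries, while Thy1 stayed at 0.249 to 0.320. Of 12 genes of other lineages only Sox2 did, at 10.6 to 12.5 RPKM. 1 FC/FC H3K4me2 library, NGS-6282, carries in its label the catalogue number of the antibody of the H3K4me1 libraries.

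The lost region with the highest H3K4me1 score lay upstream of Pgf, which encodes placental growth factor, a secreted ligand of the VEGF family. It spanned chr12:85185102-85187089 (mm10), 7789 bp from the Pgf TSS, in sequence that GENCODE places outside transcripts, 716 bp from the TSS of the GENCODE gene Gm45930. The second lay in an intron of Itga11, the gene of a collagen-binding integrin alpha chain of fibroblasts, at chr9:62690890-62692527, 13035 bp from the TSS. The sixth lay in an intron of Foxred2, an oxidoreductase of the endoplasmic reticulum, at chr15:77948678-77949850, 6872 bp from the TSS. The reference sequence (RefSeq, GRCm38.p6, the mm10 assembly, plus strand) of 200 bases around the middle of the stretch shared by the 3 F/F peaks is shown for these regions. Capitals mark matches to the AP-1 motif TGANTCA and the TEAD motif GGAATG, searched on both strands. AP-1 and TEAD are transcription factor families that bind many fibroblast enhancers.
Pgf: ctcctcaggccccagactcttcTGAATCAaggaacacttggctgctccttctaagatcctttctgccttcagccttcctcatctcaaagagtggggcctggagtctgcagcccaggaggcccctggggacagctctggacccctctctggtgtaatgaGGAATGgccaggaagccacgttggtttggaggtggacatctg
Itga11: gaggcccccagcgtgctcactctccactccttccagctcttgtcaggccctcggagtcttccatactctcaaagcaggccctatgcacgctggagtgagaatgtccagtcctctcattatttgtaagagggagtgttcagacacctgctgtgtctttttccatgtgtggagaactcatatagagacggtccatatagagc
Foxred2: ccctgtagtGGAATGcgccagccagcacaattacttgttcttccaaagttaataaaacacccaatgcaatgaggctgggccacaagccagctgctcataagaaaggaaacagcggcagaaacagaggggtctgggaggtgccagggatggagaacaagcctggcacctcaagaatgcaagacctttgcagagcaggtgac
These windows are chr12:85186253-85186452, chr9:62691711-62691910 and chr15:77949206-77949405. The Pgf window held 1 AP-1 and 1 TEAD match, the Foxred2 window 1 TEAD match and the Itga11 window none. The 200-base windows of the regions ranked between Itga11 and Foxred2, in Nckap5l, Man1c1 and Fam163b, held no match and are not shown. No match says only that these letters are not in the window.

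H3K4me1 peak scores (minus 10 times the log10 of the peak caller's p-value, deposited from 50 upward) showed how strong these peaks were. At Pgf the scores were 180.84, 304.57 and 380.34 in the F/F libraries NGS-6277, NGS-6285 and NGS-6293. The Itga11 region had scores of 234.72, 154.77 and 300.75 in the same order. A second lost region of Itga11, chr9:62689517-62690714, lay beside it with weaker scores of 112.38, 73.21 and 141.48. Some flanking H3K4me1 peaks at Itga11 were present in every library of both genotypes. The peak between 3977 and 8592 bp from the TSS scored 1810.92, 1167.34 and 1473.79 in FC/FC, against 1652.65, 1640.4 and 1959.35 in F/F, and these ranges overlapped. The next peak beyond the lost pair, between 17564 and 20189 bp from the TSS, scored 258.05, 196.35 and 299.83 in FC/FC, against 494.19, 322.85 and 547.1 in F/F. At Pgf, the peak over the TSS scored 193.2, 88.02 and 96.9 in FC/FC and 118.57, 64.98 and 252.69 in F/F. Neither the Pgf region nor the Itga11 pair had an H3K4me2 or H3K4me3 peak in any library.

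**Figure D1:**
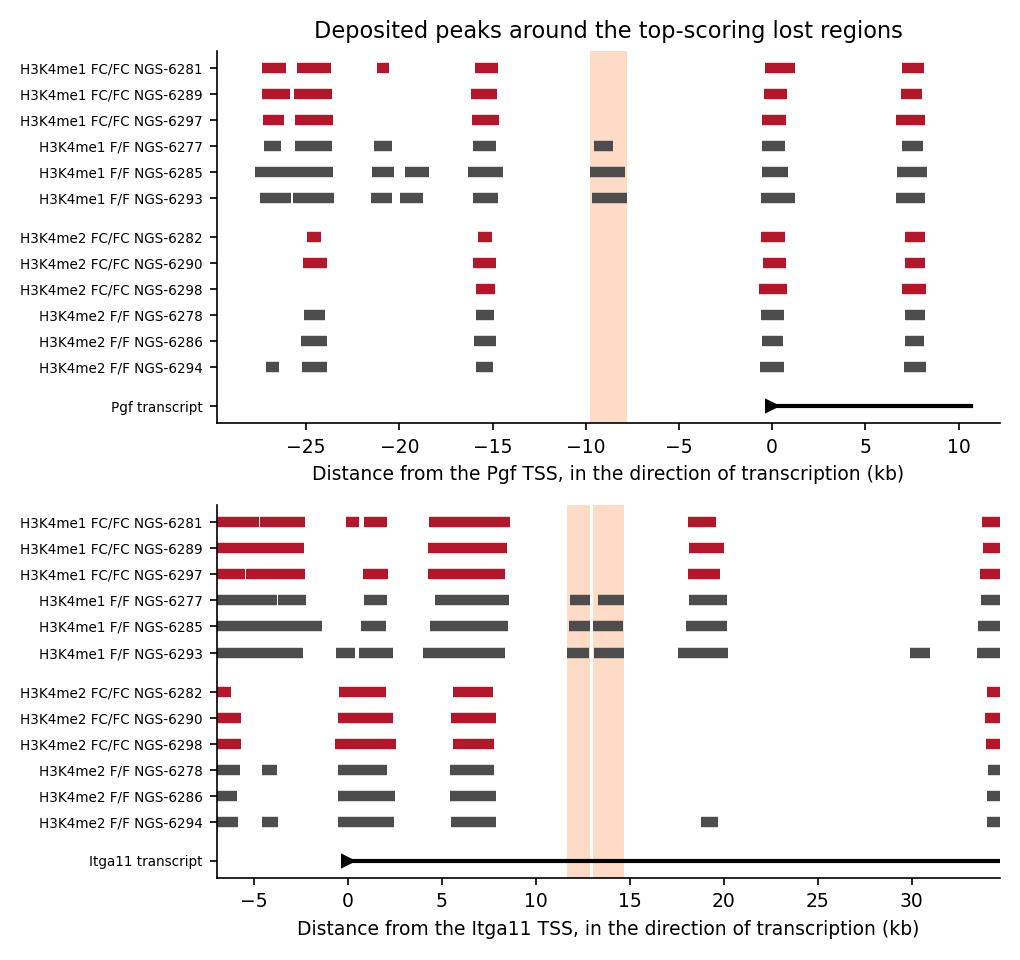
Deposited H3K4me1 and H3K4me2 peaks around the lost regions of Pgf (top) and Itga11 (bottom). The x axis is the distance from the TSS in kb, each row is a library (FC/FC red, F/F grey), bars are peaks, shading marks the lost regions and the black line is the transcript. In the shaded stretches only the 3 F/F H3K4me1 rows hold a peak. The H3K4me1 peaks over the Pgf TSS and between 3977 and 8592 bp from the Itga11 TSS are in every H3K4me1 library. Other flanking H3K4me1 peaks vary between libraries, such as that over the Itga11 TSS. One upstream of Pgf is in the F/F libraries NGS-6285 and NGS-6293 alone and not in NGS-6277.

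The other high-scoring lost regions lay mostly in introns. Of the 10 with the highest mean F/F score, 9 were intronic and only the Pgf region was outside transcripts. In Nckap5l (chr15:99448866-99451015) the scores were 184.36, 196.43 and 289.66 in NGS-6277, NGS-6285 and NGS-6293. In Man1c1, which encodes a Golgi mannosidase of N-glycan trimming (chr4:134682339-134684989), they were 71.0, 243.04 and 318.36. It was the only one of the 10 with an H3K4me2 peak, of score 126.56 in 1 F/F library and with none in FC/FC. In Fam163b (chr2:27120032-27122691) the scores were 139.5, 89.54 and 345.5, and in Foxred2 they were 225.22, 110.36 and 206.78. F/F libraries thus differed widely within 1 region. The remaining 4 lay in Kalrn, in Naaa, a lysosomal amidase, in Oaf and in 2210408F21Rik. Their mean F/F scores were 180.3, 178.2, 174.9 and 173.9. The last lay 404 bp from a GENCODE TSS.

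Most lost regions were weak peaks. The median score over the 775 regions was 81.7, 71.6 and 92.8 in NGS-6277, NGS-6285 and NGS-6293, against 282, 248 and 405 over constant regions in the same libraries. A score of at least 100 in all 3 F/F libraries was found at 32 lost regions (4.13%), against 79.7% of constant regions. The mean F/F score ranged from 52.1 to 288.6, with a median of 86.4. Just inside the rule lay a region 232059 bp from Tle3, with scores of 50.06, 50.4 and 84.19, and a region near Fam101a, with 95.0, 50.08 and 141.58. Just outside lay a region near Mt2, a metallothionein gene, with F/F scores of 70.94, 78.52 and 78.51. It was left out because the FC/FC library NGS-6297 had a peak of score 50.04 there. A region in Ncs1, a neuronal calcium sensor gene, had F/F scores of 101.2, 84.7 and 88.83 and was left out for a NGS-6297 peak of 50.06. For the distance, a region 5012 bp from Synb was kept and one 4951 bp from Stra6 was not.

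**Figure D2:**
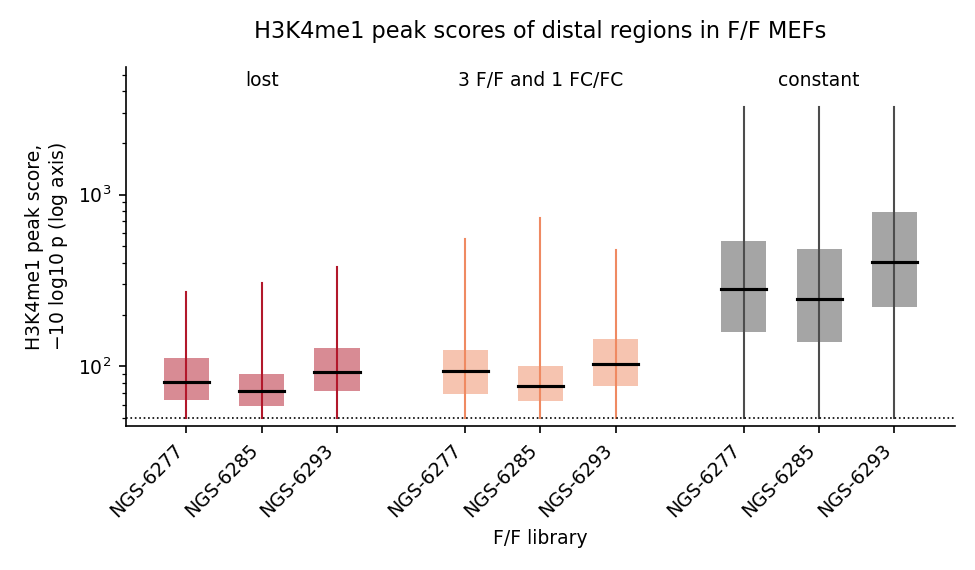
H3K4me1 peak scores (y axis, minus 10 log10 p, log scale) in the 3 F/F libraries for lost regions, regions with a peak in all 3 F/F and 1 FC/FC library, and constant regions. Boxes span the quartiles, black bars are medians, lines reach the lowest and highest score and the dotted line is the lowest deposited score, 50. The lost medians lie between 71.6 and 92.8 and the constant medians between 248 and 405.

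Lost regions were also shorter than constant ones, with a median length of 1230 bp against 2526 bp, and 1108 bp for gained regions. In 758 of the 775 (97.8%) the F/F peaks of all 3 libraries shared a stretch, with a median of 642 bp over all members that had one. Their median distance to the nearest TSS was 33289 bp, against 39169 bp for constant and 46246 bp for gained regions. By the midpoint in GENCODE, 450 (58.1%) were intronic, 290 (37.4%) intergenic and 35 (4.52%) exonic, against 56.1%, 40.0% and 3.88% of all distal regions. GENCODE, which lists more transcripts than the deposited tables, placed a TSS within 5 kb of 118 lost regions (15.2%) and of 15.0% of all distal regions. These 118 regions were therefore distal only by the deposited tables. A constant H3K4me1 region lay within 5 kb of 407 lost regions (52.5%) and of 29.0% of gained regions. Regions with a peak in all 3 F/F and 1 FC/FC library were close to the lost ones in these traits. Their median length was 1358 bp, their median distance to a TSS 34426 bp, and 49.3% had a constant region within 5 kb.

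The base composition was given for 300 bp around the stretch shared by the F/F peaks. Where none was shared, the midpoint of the region was used. This held for all gained regions, and a stretch was shared at 54.1% of all distal regions. The median GC content was 49.7% in lost regions, against 46.3% in constant and 42.0% in gained regions. An AP-1 match (TGANTCA) was found in 133 lost regions (17.2%), against 19.1% of constant, 26.1% of gained and 18.6% of all distal regions. A TEAD match (GGAATG) was found in 193 lost regions (24.9%), against 22.7% of constant, 23.9% of gained and 22.5% of all distal regions. Regions with a peak in all 3 F/F and 1 FC/FC library had a median GC of 48.7%. Of these, 19.5% had an AP-1 match and 23.1% a TEAD match. Over whole regions, which differ in length, an AP-1 match was found in 45.2% of lost and 72.1% of constant regions. A match describes the sequence and is not evidence of binding.

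The lost regions were spread over the genome. They were nearest to the TSSs of 709 genes, of which 654 had 1 lost region, 47 had 2 and 8 had 3 or more. Lost regions made up 0.476% of distal regions on chromosome 10 and 1.36% on chromosome 15, with the other placed chromosomes that held any between these values. Of 2120 windows of 1 Mb with a distal region, 582 held a lost one. The most, 6 each, were in 2 windows of chromosome 16, the first (30000001 to 31000000) around Xxylt1 and Hes1 with 108 distal regions and the second (34000001 to 35000000) around Kalrn and Mylk with 100. The third, with 4 of 54, lay on chromosome 12 near Cipc and Irf2bpl, a count shared with other windows. Another lost region lay within 50 kb of 97 members (12.5%).

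Kalrn held the largest group, 5 lost regions whose nearest listed TSS was that of Umps, the gene of uridine monophosphate synthase. These 5 were among 39 distal regions nearest to Umps, of which 17 were constant and 0 gained. The strongest, chr16:34112021-34113380, had scores of 256.58, 115.82 and 168.42 in NGS-6277, NGS-6285 and NGS-6293. The neighbouring region, chr16:34110256-34111650, had 66.68, 76.93 and 160.77. Another, chr16:34085519-34087352, had 135.40, 105.78 and 92.14. The other two, of lower score, lay between these. In introns of Prkca, the gene of protein kinase C alpha, 3 lost regions had scores from 50.25 to 127.47. In Gfod1, 3 lost regions had scores from 52.06 to 95.72. The Prkca group was 3 of 28 distal regions nearest to Mir7223, and the Gfod1 group 3 of 13 nearest to Gfod1. The remaining groups of 3 or more were nearest to 6030471H07Rik (4 of 48 distal regions), Fam53b (3 of 19), Maf (3 of 80), Slamf9 (3 of 8) and Uvrag (3 of 31).

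Lists of genes tied to fibroblast function and to the MLL2 complex were counted by nearest TSS, with no test. In the fibroblast matrix list, 2 lost regions (0.258%, against 0.453% of all distal regions) were nearest to Thbs2, a matricellular thrombospondin, and Postn, periostin. The Postn region had scores of 85.07, 135.25 and 97.33 in NGS-6277, NGS-6285 and NGS-6293, and the Thbs2 region 62.7, 76.69 and 78.81. In the adhesion and actin list both regions belonged to Itga11 (0.258% against 0.243%). In the growth factor and receptor list the regions were those of Pgf and Tgfbr1, a TGF-beta receptor (0.258% against 0.610%). The Tgfbr1 region lay in an exon of Col15a1, with scores of 52.25, 113.79 and 90.25. No lost region was nearest to a gene of the MLL2/MLL3 complex, YAP target, AP-1, adipogenic, myogenic or mesenchymal transcription factor lists. All distal regions numbered 35, 112, 89, 212, 36 and 238 at these lists in the same order, and 0.922% of all distal regions were lost.

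How the loss held in H3K4me1 libraries that did not choose the regions was read by leaving out 1 FC/FC and 1 F/F library. The other 4 libraries then defined lost regions, 1912 to 4651 of them over the 9 ways to do so. Of these regions, 24.3% to 45.3% (median 36.3%) had a peak in the left-out FC/FC library and 37.9% to 70.2% (median 57.3%) in the left-out F/F library. The share was lower in the left-out FC/FC library in 8 of 9 choices, with differences of -6.39 to -35.4 percentage points. With NGS-6281 and NGS-6285 left out it was higher in FC/FC, at 41.9% against 38.4%. NGS-6285, with the fewest F/F peaks, had a peak at 37.9% to 38.5% of the regions that its 2 companions gave, while NGS-6293 had one at 67.2% to 70.2%. In no choice did the left-out F/F library hold a peak at more than 70.2% of such regions, whereas at regions constant in the other 4 libraries it held one at 93.5% to 98.8%. The 9 choices share libraries and are given as a range.

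**Figure D3:**
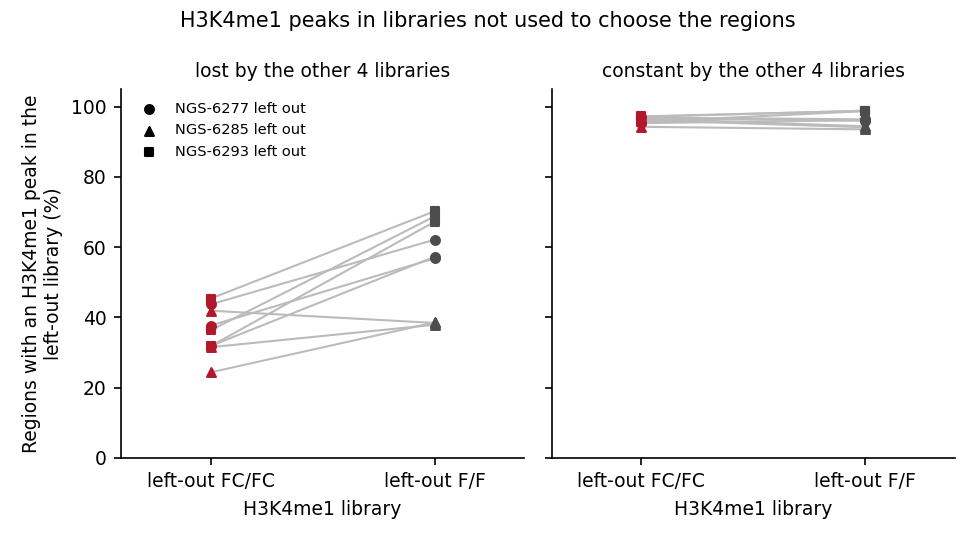
Share of regions (y axis, %) with an H3K4me1 peak in a library that was not used to choose them, for regions lost (left) or constant (right) by the other 4 libraries. Each line is 1 of the 9 pairs of left-out libraries, with the FC/FC library on the left and the F/F library on the right, and symbols name the F/F library left out. For lost regions the FC/FC share is the lower in 8 of 9 pairs, at 24.3% to 45.3% in FC/FC and 37.9% to 70.2% in F/F, and lines of constant regions stay between 93.5% and 98.8%.

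The member list depended on the peak threshold. With peaks of score 100 or more, 503 regions were lost, and 32 of the 775 overlapped them, which is 4.13% of the 775 and 6.36% of the 503. With peak lists cut to equal length by score, 542 were lost and 317 gained, and 202 regions overlapped the 775, or 26.1% of the 775 and 37.3% of the 542. Leaving out 1 H3K4me1 library raised the number to between 1209 and 2703, the highest without NGS-6285, as a rule with fewer libraries admits more regions.

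H3K4me2, measured in other libraries, was sparse at lost regions and its peaks were fewer in FC/FC. An H3K4me2 peak was found at 3.35%, 3.87% and 3.10% of the 775 regions in the FC/FC libraries NGS-6282, NGS-6290 and NGS-6298, against 8.90%, 5.68% and 9.55% in the F/F libraries NGS-6278, NGS-6286 and NGS-6294. All 3 FC/FC shares lay below all 3 F/F shares. The means were 3.44% ± 0.394 in FC/FC and 8.04% ± 2.07 in F/F (SD, n = 3 each), a difference of -4.60 percentage points. The exact two-sided permutation test over libraries gave p = 0.1, the smallest that 3 against 3 can give, so the difference could not pass 0.05. In bulk chromatin, fewer cells with the mark and less mark per cell cannot be told apart. The H3K4me2 and H3K4me1 libraries of the same cells were called against the same H3 libraries.

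The size of this difference changed with the number of peaks kept. With the H3K4me2 lists cut to equal length by score, the shares were 2.84% to 3.35% in FC/FC and 3.35% to 4.00% in F/F, a difference of -0.52 percentage points (exact permutation p = 0.2). With peaks of score 100 or more it was -1.51 points. Every F/F H3K4me2 list was longer than every FC/FC list, and the part of list length in the result was not tested otherwise. At the 503 regions lost by H3K4me1 peaks of score 100 or more, H3K4me2 shares were 6.36% to 7.75% in FC/FC and 15.3% to 26.4% in F/F.

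Constant regions also carried fewer H3K4me2 peaks in FC/FC. There the shares were 62.9%, 66.9% and 65.6% in FC/FC and 74.9%, 73.5% and 80.6% in F/F, a difference of -11.2 percentage points (exact permutation p = 0.1). The difference in points was thus 6.58 smaller at lost than at constant regions (exact permutation p = 0.1). The sign of this value was set by the baselines. The F/F mean at lost regions was 8.04%, so even a full loss there could not reach -11.2 points. The test in points therefore cannot say whether lost regions changed less. The difference was 9.96 smaller with H3K4me2 peaks of score 100 or more (exact permutation p = 0.1). It was only 2.77 smaller with H3K4me2 lists of equal length and 1.24 against regions with 1 FC/FC library (exact permutation p = 0.3 and 0.4). As a ratio the order turned round, since the FC/FC mean was 0.428 of the F/F mean at lost and 0.853 at constant regions. It was 0.569 at regions with a peak in all 3 F/F and 1 FC/FC library, so a low ratio was not particular to lost regions. These ratios came from the full H3K4me2 lists, which were longer in F/F. With lists of equal length the means at lost regions lay closer, at 3.10% in FC/FC and 3.61% in F/F. On the log2 scale of the ratio with full lists, added after the data were seen, lost minus constant was -0.97 (exact permutation p = 0.1). At gained regions the shares were 23.9%, 32.0% and 27.9% in FC/FC and 27.6%, 30.9% and 32.0% in F/F, which overlapped (p = 0.7, exact permutation test). Regions with a peak in all 3 F/F and 1 FC/FC library held 7.53%, 8.51% and 7.07% in FC/FC and 12.7%, 11.1% and 16.8% in F/F.

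**Figure D4:**
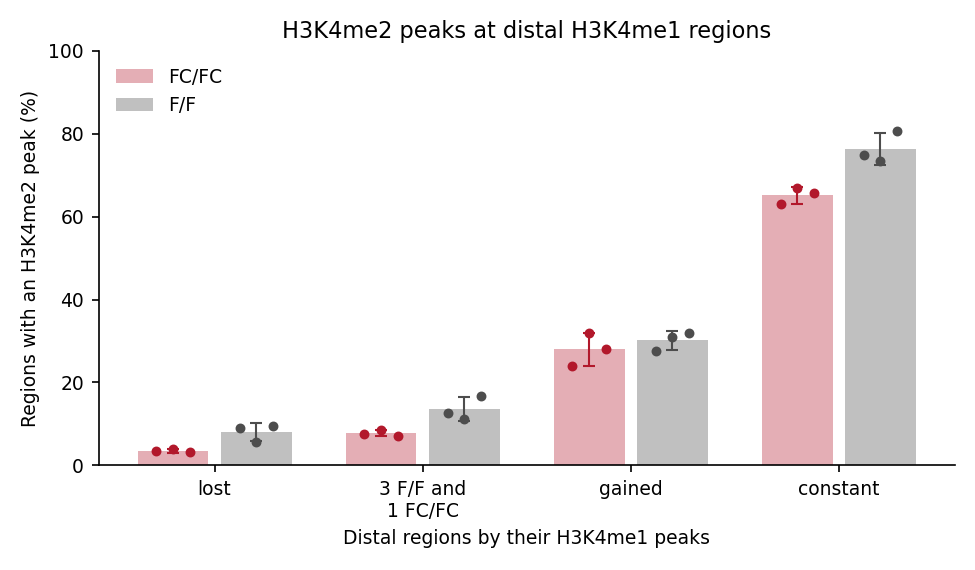
Share of distal regions with an H3K4me2 peak (y axis, %) for lost regions, regions with all 3 F/F and 1 FC/FC H3K4me1 peak, gained regions and constant regions. Bars are means of 3 libraries, error bars SD and points single libraries, FC/FC red on the left and F/F grey on the right of each pair. Lost regions have the lowest shares, 3.10% to 3.87% in FC/FC and 5.68% to 9.55% in F/F, against 62.9% to 80.6% in constant regions.

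Across the 6 H3K4me2 libraries, 672 lost regions (86.7%) had no peak, against 47.7% of all distal regions. A peak in at least 1 library was found at 103 (13.3%), against 52.3% of all distal regions. Of these, 62 had peaks in F/F alone (8.0%, against 9.34% of all distal regions) and 3 in FC/FC alone (0.387%, against 1.12%), while 38 had peaks in both. A peak in all 3 F/F and no FC/FC library was found at 4 lost regions (0.516%), below the 1.23% of all distal regions. The reverse, all 3 FC/FC and no F/F library, was found at 0 (0.0167% of all distal regions). The first, chr15:97407219-97408355, lay 159932 bp from Amigo2, an adhesion protein gene, with H3K4me2 scores of 117.6, 54.72 and 191.9 in NGS-6278, NGS-6286 and NGS-6294. The second, chr10:20817884-20819403, was nearest to Pde7b, a cAMP phosphodiesterase gene, with 109.74, 93.19 and 90.61. The third lay in an intron of Adtrp (52.72, 124.82 and 51.38) and the fourth near Cep135, a centriole protein gene (66.66, 81.14 and 55.81). These scores lay between 51.38 and 191.9, where the lowest deposited score is 50.

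At the other end, 15 lost regions (1.94%, against 30.4% of all distal regions) had an H3K4me2 peak in all 6 libraries. In Kalrn, the lost region chr16:34092711-34094869 had H3K4me2 scores of 861.09, 566.17 and 738.05 in FC/FC and 564.09, 610.14 and 1322.74 in F/F. Its H3K4me1 scores in F/F were only 57.76, 78.84 and 93.37. GENCODE places a Kalrn TSS 1118 bp away. The region near Pdzk1ip1, a small membrane protein gene (chr4:115096062-115097435), had H3K4me2 scores of 690.66, 380.1 and 657.13 in FC/FC and 628.67, 292.06 and 901.39 in F/F. In both regions the H3K4me2 scores of the genotypes overlapped. The third, chr9:15492662-15493512 near Smco4, had 519.11, 797.43 and 694.55 in FC/FC and 823.44, 630.12 and 1102.51 in F/F, again overlapping. It contains a GENCODE TSS of Smco4, although the deposited tables put the nearest TSS 11983 bp away.

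Within the members, H3K4me2 shares were read by H3K4me1 score and by place, without a test. At the 231 regions with a mean F/F score under 75, 3.46% to 4.76% had an H3K4me2 peak in FC/FC and 6.93% to 8.66% in F/F. At the 311 regions of 75 to 100 the shares were 3.54% to 4.50% in FC/FC and 5.14% to 8.68% in F/F. At the 202 regions of 100 to 150 the shares were 2.48% to 2.97% in FC/FC and 5.45% to 11.4% in F/F. At the 31 regions of 150 or more they were 0.0% to 3.23% in FC/FC and 3.23% to 12.9% in F/F. In F/F the 4 classes overlapped. By place, intergenic members had more H3K4me2 (5.52% to 6.55% in FC/FC, 8.97% to 15.2% in F/F) than intronic ones (1.33% to 2.22% in FC/FC, 3.56% to 6.89% in F/F). Without the 118 members near a GENCODE TSS, a choice added after the data were seen, the shares were 2.74% to 3.65% in FC/FC and 5.18% to 9.89% in F/F.

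H3K4me3 was close to absent. A peak was found at 0.258%, 0.129% and 0.129% of lost regions in the FC/FC libraries NGS-6283, NGS-6291 and NGS-6299, and at 0.129%, 0.129% and 0.258% in the F/F libraries NGS-6279, NGS-6287 and NGS-6295. The means were equal, at 0.172% ± 0.0745 (SD, n = 3 each, exact permutation p = 1). These shares rest on 2 regions. The Smco4 region had H3K4me3 scores of 144.08, 145.21 and 219.12 in FC/FC and 334.44, 83.27 and 243.77 in F/F. The Kalrn region with H3K4me2 in all 6 libraries had an H3K4me3 peak in 1 library of each genotype, of score 55.61 in FC/FC and 109.77 in F/F.

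Host genes, those with a transcript that overlaps a lost region, numbered 398 in the RPKM tables, of which 138 passed the filter on low H3K4me2 values. RPKM counts reads over the whole transcript and 500 bp at each end, scaled to transcript length and library size, so a region is a small part of it. In limma on log2(RPKM + 0.1), with Benjamini-Hochberg adjustment over 9986 genes, 7 of the 138 host genes passed 0.05 for H3K4me2. All 7 had a negative difference (5.07%, against 1.55% of all genes lower, 0.591% higher and 2.14% in either direction). Of the 7, 6 were above 1 RPKM in all 6 libraries, while Ninj2 met the filter through its F/F libraries alone, as did 44 of all 214 genes that passed. With a filter on the mean of the 6 libraries, added after the data were seen, Ninj2 was not tested and 4 of 134 host genes passed, all lower, among 142 of 9881 genes. The median log2 difference, FC/FC minus F/F, was -0.04 over the 138 host genes and 0.07 over all genes tested. Of all 214 genes that passed, 72.4% were lower in FC/FC, against 92.1% of 340 with quantile normalization and 93.6% of 434 with libraries centred on their medians, and 28.6% of 2962 without the FC/FC library NGS-6282. Host genes were chosen through H3K4me1 in the same cells, and the lost regions inside these 7 genes had no H3K4me2 peak in any library.

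The gene with the largest H3K4me2 difference was 4933433H22Rik, at 1.96, 1.77 and 1.78 RPKM in FC/FC (NGS-6282, NGS-6290 and NGS-6298) and 2.65, 2.68 and 2.70 RPKM in F/F (NGS-6278, NGS-6286 and NGS-6294). The genotypes did not overlap, and the log2 difference was -0.52 ± 0.051 (SE, limma adjusted p = 0.0127). Tns1, which encodes the focal adhesion protein tensin, had 1.25, 1.10 and 1.09 RPKM in FC/FC and 1.68, 1.49 and 1.68 RPKM in F/F, a log2 difference of -0.46 ± 0.072 (limma adjusted p = 0.0346). Its lost region, chr1:73973771-73976389, had H3K4me1 scores of 75.27, 121.35 and 94.36 in NGS-6277, NGS-6285 and NGS-6293. Foxn1, the transcription factor of thymic epithelium, was lower by a log2 difference of -0.37, at 1.35 ± 0.0976 RPKM in FC/FC and 1.77 ± 0.0690 in F/F (SD, n = 3 each). Tspan14, a tetraspanin gene, had -0.36, Sh3bp5, a JNK-binding protein gene, -0.31 and Zmiz1, a transcriptional coregulator gene, -0.26. The limma adjusted p-values of Foxn1 and these 3 genes lay between 0.0367 and 0.0495. Ninj2, an adhesion protein gene, had 0.774, 0.819 and 0.837 RPKM in FC/FC and 1.02, 1.07 and 1.02 RPKM in F/F, a log2 difference of -0.32, and is given as values because only its F/F libraries were above the filter.

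**Figure D5:**
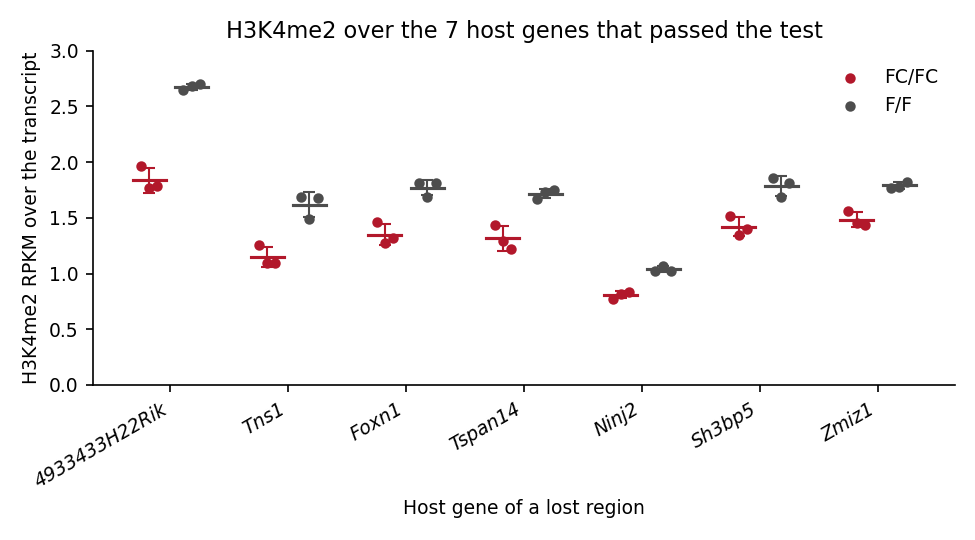
H3K4me2 RPKM over the transcript (y axis) for the 7 host genes of lost regions that passed limma, ordered by the log2 difference. Points are libraries, bars the means and error bars SD of 3, with FC/FC red on the left and F/F grey on the right of each pair. All 3 FC/FC points lie below the F/F points in each gene, from 0.774 RPKM in Ninj2 upward.

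These calls changed with the libraries used. Without the FC/FC library NGS-6282, 2962 of 9886 genes passed, 847 lower and 2115 higher in FC/FC, and 44 of 134 host genes, 36 lower and 8 higher. Without any 1 of the other 5 H3K4me2 libraries, 0 to 18 genes and no host gene passed. H3K4me2 of Kalrn, Itga11, Prkca and Gfod1, which hold several lost regions, was given as values, since they did not pass the filter. Kalrn had 0.264, 0.248 and 0.252 RPKM in FC/FC and 0.340, 0.306 and 0.328 in F/F. Itga11 had 0.457, 0.429 and 0.418 RPKM in FC/FC and 0.522, 0.532 and 0.587 in F/F. Prkca had 0.666, 0.684 and 0.679 RPKM in FC/FC and 0.743, 0.753 and 0.729 in F/F. In Gfod1 the genotypes overlapped, at 0.939, 0.856 and 0.822 RPKM in FC/FC and 0.917, 0.907 and 0.942 in F/F. Among the other hosts of groups of 3 or more, they also overlapped in Fam53b, Lhpp and Dgat2. Fam53b had 0.750, 0.582 and 0.582 RPKM in FC/FC and 0.806, 0.655 and 0.816 in F/F. In Uvrag and Wwox all FC/FC values lay below all F/F values. How many of all genes show that order was not counted.

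For H3K4me3, 0 of 9072 genes and 0 of 81 host genes passed limma (0% of all genes), and 0 passed with limma-voom on recovered reads. At an unadjusted p under 0.05 there were 339 genes, 3 of them hosts. The median log2 difference was 0.01 over host genes as well as over all genes tested. H3K4me1 over host genes, from the libraries of the rule, had a median log2 difference of -0.06 over 398 host genes and 0.06 over 23043 genes. It was negative in 290 host genes (72.9%) and in 34.9% of all genes. Hosts were chosen through lost H3K4me1 peaks in these same libraries, so the choice itself favoured a negative sign and this contrast is no separate result. Itga11 had 1.18, 1.13 and 1.07 H3K4me1 RPKM in FC/FC and 1.35, 1.29 and 1.35 in F/F, and Kalrn 0.904, 0.839 and 0.839 in FC/FC and 0.966, 0.905 and 0.943 in F/F, where the lowest F/F value exceeded the highest FC/FC value by little.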

How the data were processed

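The authors sequenced ChIP DNA, ran CASAVA 1.4 and aligned reads with BWA 0.7.10 to mm10, as the submitters' processing notes list. Peaks were called per library with MACS 1.4.2 against an H3 library, and the deposited score of a peak is minus 10 times the log10 of its p-value. The methods state that the authors discarded peaks in ENCODE and modENCODE blacklisted sequence before later steps. Whether the deposited lists precede this step is not given, and nothing was removed here. The deposited RPKM values cover RefSeq transcripts with 500 bp at each end and are not divided by H3. They came out as whole reads (tolerance 0.01) for 100% of values.

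Here peaks of 6 H3K4me1 libraries were merged, and regions were compared by an overlap of at least 1 bp. Coordinates are 1-based. Features came from GENCODE M21 and the GRCm38.p6 sequence. Shares were compared between 3 and 3 libraries by exact two-sided permutation tests, over which no adjustment was made. RPKM values (1 transcript per gene, at least 250 bp, 23043 genes) were tested as log2(RPKM + 0.1) in limma 3.58.1 (R 4.3.3) with a mean-variance trend, for genes above 1 RPKM in at least 3 of 6 libraries, and understate the change of low genes. The region rule and limma were tested on simulated data. Python 3.11.15, pandas 2.3.3 and scipy 1.17.1 were used.

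The members and lists were chosen with earlier results of these data known. Regions named were the top 10 by mean F/F score, those with H3K4me2 in all 3 F/F and no FC/FC library, the top 3 with H3K4me2 in all 6, the top windows and those at the rule's edges. Genes named were their nearest or host genes, host genes past limma, genes with 3 or more lost regions and listed genes. Alternatives changed the score minimum, the number of peaks, the distance, the merging, the overlap, the pseudocount, the filter, the scaling, the transcript and the libraries. 34 samples of the series were not used.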

Additional observations from a re-analysis of the deposited data

How the results depend on the processing

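The count of lost regions was 775. It was 503 with H3K4me1 peaks of score 100 or more, 542 with peak lists of equal length, 840 over 2 kb and 676 over 10 kb from a TSS, 625 with peaks merged across 500 bp, 758 with a base shared by the F/F peaks and 657 with GENCODE TSSs as well. Leaving out 1 library gave 1209 to 2703. The H3K4me2 difference at lost regions stayed negative under all alternatives, from -12.3 to -0.52 percentage points, and from -5.78 to -3.85 without 1 library. The -12.3 came from the 503 regions lost at H3K4me1 scores of 100 or more, of which only 32 overlapped the 775. It thus describes largely other regions. The lost minus constant value of 6.58 points had a sign set by the low F/F share at lost regions. Against gained instead of constant regions it turned to -2.40 (exact permutation p = 0.5). As a log2 ratio, with the full H3K4me2 lists, it turned to -0.97 (exact permutation p = 0.1). In points it was 9.96 with H3K4me2 scores of 100 or more and 4.89 with H3K4me1 lists of equal length (exact permutation p = 0.1 each). With H3K4me2 lists of equal length it was 2.77 (p = 0.3, exact permutation) and with 50% overlap 4.57 (p = 0.6, exact permutation). Against regions with 1 FC/FC library it was 1.24 (p = 0.4, exact permutation), and without 1 library 5.18 to 7.74. The H3K4me3 difference was 0 and lay between -0.04 and 0.04 without 1 library. The AP-1 share, lost minus constant, moved from -1.95 points to -26.9 over whole regions and -8.94 against gained regions, TEAD from 2.23 to -22.6 over whole regions, and median GC from 3.33 to 7.67 against gained regions. Whole regions differ in length.

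Genes that passed for H3K4me2 numbered 214 of 9986 (2.14%), and hosts 7 of 138 (5.07%). Without the RPKM filter, 452 of 23043 genes and 21 of 398 hosts passed. Of the 9986 genes and 138 hosts, 340 and 11 passed with quantile normalization and 434 and 20 with median centring. With limma-voom 443 and 29 of them passed. With the filter on mean RPKM, 142 of 9881 genes and 4 of 134 hosts passed. Of 289 genes tested that were nearest by TSS, 10 passed (3.46%, against 2.14% of all genes). Without 1 library there were 0 to 2962 genes and 0 to 44 hosts. For H3K4me3, without 1 library, there were 0 to 2 genes and 0 hosts. The causes were not tested. Ninj2 reached a limma adjusted p of 0.0561 with quantile normalization and Sh3bp5 0.0532 without the filter. With the filter on mean RPKM Sh3bp5 had 0.0551 and Zmiz1 0.0525.

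The labels give no number that pairs an FC/FC with an F/F library. With library numbers sorted within each genotype and used as a replicate block, a pairing that no label gives and that was tried after the data were seen, limma called 197 genes for H3K4me2 (165 lower), 5 of them hosts and all lower, and 49 for H3K4me3 (26 lower), with 0 hosts. Tspan14 and Zmiz1 then had limma adjusted p of 0.0567 and 0.0676. Deviations from the genotype means, across genes, correlated within these sets at 0.595, 0.710 and -0.492 for H3K4me2 and 0.632, 0.716 and -0.219 for H3K4me3, so that the order did not pair all libraries. The smallest p of an exact permutation test of 3 against 3 libraries is 0.1.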
